A study of Mus musculus with 23 samples.

Results

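The level of every gene in villus epithelium lacking Eed was set against its level in intestinal stem cells (ISC). The deposited tables hold no such comparison: 1 table sets wild-type villus against ISC and the other sets Eed-null against wild-type villus. The tables were joined gene by gene through their common wild-type villus values. Of 22517 named genes in both tables, the 12098 that the authors had tested in both comparisons were kept, whatever the result of the tests. The labels give 3 RNA libraries to each group, called biological replicates. Wild-type villus came from EedF/F mice without Cre and Eed-null villus from EedF/F mice with Villin-CRE, a Cre driven by a promoter active throughout the intestinal epithelium. ISC came from Eed+/+ mice that carried Lgr5-EGFP-IRES-CREERT2, which marks Lgr5-expressing crypt cells with GFP, and were sorted for high GFP. All of these mice were adults of mixed B6;129 background given tamoxifen at 1 to 2 mg on 5 days, and the tissue was the proximal part of the intestine. ISC and Eed-null villus therefore differ in cell type, in Eed, in the Cre line and in handling, since ISC were also digested for 45 min with TrypLE at 37 °C whereas villus was released in EDTA and frozen.

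Polycomb repressive complex 2 (PRC2), of which Eed is an obligate part, places the histone mark H3K27me3 and keeps many developmental genes silent. ISC divide at the crypt base and feed the villus, whose enterocytes digest and absorb, while goblet, Paneth, enteroendocrine and tuft cells secrete mucus, antimicrobial peptides, hormones and other signals. As cells leave the crypt, genes for division, ribosomes and the stem cell state fall and genes for digestion and transport rise. The question addressed here was where Eed-null villus lies along that path, gene by gene.

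Each table gives 1 value per gene and group, in RPKM, read counts scaled by gene length and by the number of mapped reads. The wild-type villus value of the first table was 1.16193 times that of the second at every one of 10353 genes above 1 RPKM (range 1.16192 to 1.16194), so Eed-null values were multiplied by 1.16193. All Eed-null levels below are on this scale, which is that of the ISC values, and 3 values in a row stand for wild-type villus, Eed-null villus and ISC in that order. The tables print no value per library, so no SD or depth can be given, and the spread between libraries enters only through the authors' q-values. A gene is called where the q in the authors' deposited table is at or below 0.05. Eed-null villus and ISC were never tested against each other: differences between them are given as folds only. Both comparisons use the same wild-type villus libraries, so an error in a wild-type value moves both.

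Eed itself (chr7:97103163-97129486, mm9) stood at 10.7 RPKM in wild-type villus, 3.49 in Eed-null villus and 24.2 in ISC. Eed-null villus held it 3.05-fold lower (q = 6.3e-06, authors' deposited table) and left it 6.92-fold below its ISC level. Which exons are deleted is not stated in the labels used here, so reads from the rest of the gene may remain. The labelled cell types carried their markers. Of the stem cell list, 23 of 24 genes joined were higher in ISC, among them Lgr5 at 18.3 RPKM against 0.607 in wild-type villus. All 29 brush border genes were lower in ISC. Paneth cell genes were also higher in ISC, at 16 of 18 joined. They summed to 5026 RPKM in wild-type villus, 6833 in Eed-null villus and 27469 in ISC. The part of Paneth cell RNA in the ISC values was not tested. Of other cells that a preparation could hold, 21 of 32 leukocyte genes were joined, 16 of them lower in ISC. Of 21 pancreas acinar genes 7 were joined, 4 of them higher in ISC. For the remaining cell types few genes were tested in both tables. These were 4 of 20 mesenchyme genes, 2 of 13 endothelial genes, 3 of 13 nerve and glia genes and none of 9 red blood cell genes. In bulk RNA fewer cells of a type and less RNA per cell cannot be told apart.

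Sex-linked genes separated ISC from both villus groups. Y-linked Eif2s3y stood at 20.2 RPKM in wild-type and 26.8 in Eed-null villus and was listed at 0 in ISC, as were Ddx3y, Kdm5d and Uty. Xist, which shares its locus entry with another gene, stood at 5.72 RPKM in wild-type villus, 4.03 in Eed-null villus and 39.5 in ISC. The sex of the animals is not among the labels used here, and its part in the differences from ISC was not tested.

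On the whole Eed-null villus stayed villus. Over the 12098 genes the median absolute difference of log2(RPKM + 1) was 0.23 between Eed-null and wild-type villus, 0.80 between wild-type villus and ISC, and 0.88 between Eed-null villus and ISC. Within 2-fold of each other on that scale were 95.4% of genes for Eed-null and wild-type villus, 58.8% for wild-type villus and ISC, and 55.4% for Eed-null villus and ISC. Eed-null villus stood more than 2-fold above ISC at 2771 genes (22.9%) and more than 2-fold below at 2629 (21.7%). At more than 4-fold these numbers were 1181 above and 682 below. The share of genes close to the ISC level was thus no greater after Eed loss than before it.

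In the authors' first comparison, ISC were higher than wild-type villus at 3670 of the 12098 genes (30.3%) and lower at 3968 (32.8%). For the ISC-higher genes the median of ISC minus wild-type villus was 1.17 on the log2(RPKM + 1) scale, and Eed-null villus lay a median of 1.29 below ISC. For the ISC-lower genes the median of ISC minus wild-type villus was -1.28, and Eed-null villus lay a median of 1.30 above ISC. These genes were picked for a difference between wild-type villus and ISC, so the choice itself holds the wild-type values away from the ISC level.

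**Figure D1:**
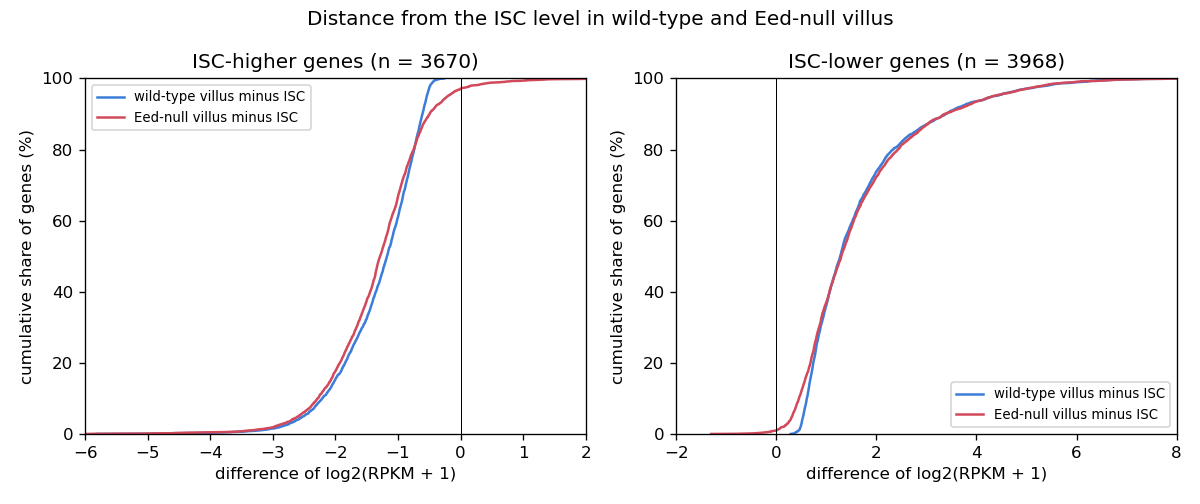
Cumulative share of genes (%, vertical axis) by their difference from ISC on the log2(RPKM + 1) scale (horizontal axis), for 3670 ISC-higher genes (left) and 3968 ISC-lower genes (right); blue is wild-type villus and red Eed-null villus. The curves run close together, with median differences of -1.29 and 1.30 for Eed-null villus, and a small share of the red curve crosses the ISC level at 0.

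Eed-null villus was called higher than wild-type villus at 754 of the 12098 genes (6.23%) and lower at 432 (3.57%). Of these, 833 (6.89%) were also called between wild-type villus and ISC and can be placed on the path between them. A gene was said to move toward ISC where its Eed-null level lay between the wild-type villus and ISC levels, past ISC where it lay beyond the ISC level on the same side, and away where it lay on the far side of wild-type villus. Among the ISC-higher genes, 157 moved toward, 100 past and 81 away. Among the ISC-lower genes, 215 moved toward, 34 past and 246 away. A further 251 genes rose and 102 fell in Eed-null villus without a call between wild-type villus and ISC, here termed off axis. At 3332 ISC-higher and 3473 ISC-lower genes, Eed-null villus was not called against wild-type villus. At q of 0.01 or below each of the 6 classes was smaller by over 1.5-fold. Among the genes described below, Ace, Atoh1, Clps, Egr1, Gda, Gzmb, Lct, Mki67, Muc2, Ndufa4, Rnf2, Rps19, Sesn1, Slc11a2, Spdef and Tcf7 were then no longer called in Eed-null villus, and Apcdd1, Bmp3, Ccdc114, Hpgds, Meis2, Otc and Saa3 no longer between wild-type villus and ISC.

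**Figure D2:**
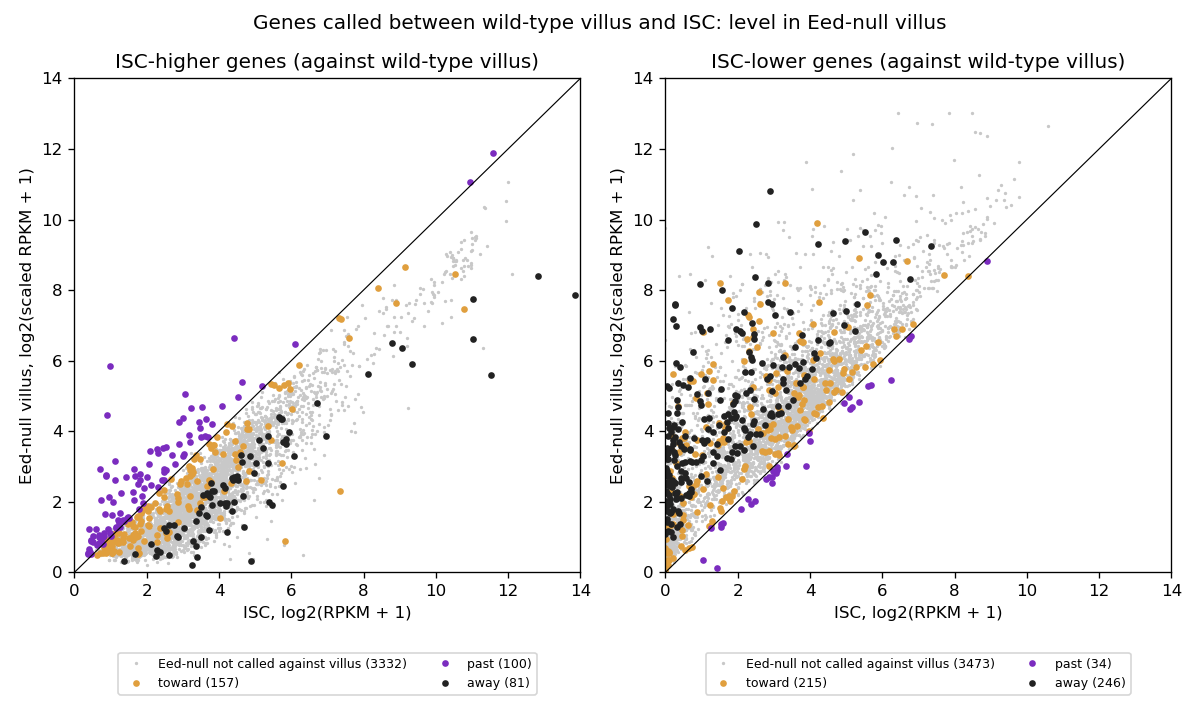
Level in Eed-null villus (vertical axis, log2 of scaled RPKM + 1) against level in ISC (horizontal axis, log2 of RPKM + 1), 1 point per gene called between wild-type villus and ISC; the line marks equal levels. Grey points were not called between Eed-null and wild-type villus; orange points moved toward, purple past and black away, with 157, 100 and 81 of the ISC-higher genes (left) and 215, 34 and 246 of the ISC-lower genes (right).

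Many of the genes that rose toward ISC came close to it, most of them at low levels, and fewer of those that fell did. Of the 157 ISC-higher genes that moved toward ISC, 90 lay within 1.5-fold of it on the log2(RPKM + 1) scale and 108 had covered more than 50% of the log2 distance from wild-type villus, with a median of 61.4%. These were mostly low genes, with median levels of 0.918 RPKM in wild-type villus, 2.57 in Eed-null villus and 4.95 in ISC. Of the 215 ISC-lower genes that moved toward ISC, 63 lay within 1.5-fold and 95 had covered more than 50%, with a median of 43.5%. Their median levels were higher, at 35.5 RPKM in wild-type villus, 16.7 in Eed-null villus and 4.00 in ISC. The 2 classes also began at unlike distances from ISC. The median of ISC minus wild-type villus on the log2(RPKM + 1) scale was 1.37 for the 157 genes and -2.26 for the 215. A fixed 1.5-fold band is thus not equally easy to reach for both.

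Among the genes that rose toward the ISC level and share no locus entry with another gene, Wfdc2 showed the greatest rise on the log2(RPKM + 1) scale. Wfdc2, which encodes a secreted whey acidic protein, stood at 0.133 RPKM in wild-type villus, 4.02 in Eed-null villus and 4.61 in ISC, so that Eed-null villus had nearly reached the ISC level. Aen, a nuclease induced by p53 in apoptosis, stood at 2.18, 11.5 and 12.2 RPKM. These were the pair closest to ISC among genes that differ at least 4-fold between wild-type villus and ISC, and both had been called with q of 6.0e-04 and 2.6e-12 in the authors' deposited table of Eed-null villus. Siva1, a pro-apoptotic adaptor, stood at 3.03, 11.1 and 24.4 RPKM. Cd44, a hyaluronan receptor and Wnt target used as a crypt marker, stood at 1.61, 6.86 and 21.9 RPKM, a 4.27-fold rise that left it 3.19-fold below ISC. In Siva1 and Cd44 part of the gap thus remained. Soat1, which esterifies cholesterol, stood at 2.73, 9.69 and 22.9 RPKM. Gm10104, a gene model on chromosome 8 (chr8:22204716-22205680) that lies between Defa21 and Gm14851, stood at 61.6, 174 and 1746 RPKM. Efna3, an ephrin ligand, stood at 0.637, 3.34 and 6.23 RPKM.

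The greatest rises among ISC-higher genes overshot the stem cell level, and the p53 target Phlda3 led them. Phlda3 (chr1:137662661-137665711), a p53 target that restrains Akt, stood at 0.193 RPKM in wild-type villus, 56.4 in Eed-null villus and 0.997 in ISC. Eed-null villus therefore exceeded ISC by 56.6-fold for a gene at less than 1 RPKM in both wild-type populations. Psrc1, a microtubule regulator of the spindle, stood at 0.509, 19.8 and 7.00 RPKM. Gdf15, a stress-induced cytokine of the TGF-beta family, stood at 0.655, 18.3 and 6.48 RPKM. Plk2, a polo-like kinase, stood at 2.54, 32.4 and 7.35 RPKM. These 3 genes exceeded ISC by 2.83-fold, 2.82-fold and 4.40-fold. Areg, which encodes the EGF receptor ligand amphiregulin, stood at 10.7 RPKM in wild-type villus, 98.7 in Eed-null villus and 20.2 in ISC. The class of 100 had median levels of 0.646, 5.11 and 2.12 RPKM in wild-type villus, Eed-null villus and ISC, and 58 of its genes were within 1.5-fold of ISC.

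Of the ISC-higher genes, 81 fell away from ISC. The alpha-defensin genes Defa21, Defa22 and Defa20, whose products are the antimicrobial peptides of Paneth cells, all fell. Defa21 stood at 212 RPKM in wild-type villus, 59.1 in Eed-null villus and 644 in ISC. Defa22 stood at 223, 80.6 and 533 RPKM and Defa20 at 143, 48.1 and 279 RPKM. Defensin genes are near-identical copies, so reads may be divided among them. Each of these 3 was highest in ISC and lowest in Eed-null villus, as was the neighbouring Gm14851 at 294, 96.3 and 2079 RPKM, while Gm10104, between Defa21 and Gm14851, rose. Gcg, the precursor of glucagon and GLP-1, stood at 11.1, 2.99 and 20.3 RPKM. It was the single enteroendocrine list gene of 26 that fell, and 6 rose. Bmp3, of the bone morphogenetic protein family, stood at 3.83, 1.03 and 6.19 RPKM. Olfm4, a secreted glycoprotein abundant in mouse crypt base cells, stood at 109.8 RPKM in wild-type villus, 47.2 in Eed-null villus and 2939 in ISC, so its distance from ISC widened from 26.8-fold to 62.3-fold. Eed, the deleted gene, belongs to this class, whose median levels were 7.18, 3.60 and 19.5 RPKM.

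Among the 215 ISC-lower genes that fell toward ISC, Reg3a showed the greatest fall on the same scale. Reg3a (chr6:78330702-78333833), a secreted antimicrobial lectin, stood at 384 RPKM in wild-type villus, 34.9 in Eed-null villus and 6.24 in ISC. Plb1, the brush border phospholipase B, stood at 53.5, 4.41 and 0.577 RPKM. Akp3, an intestinal alkaline phosphatase, stood at 1006, 118 and 4.37 RPKM. Although Akp3 fell 8.50-fold, Eed-null villus still held 27.1 times the ISC level. Fabp6, the bile acid-binding protein of the ileum, stood at 1678, 292 and 1.83 RPKM, and Eed-null villus exceeded ISC by 159.8-fold. Both Akp3 and Fabp6 thus fell and still stood far above ISC. Vwa1, an extracellular matrix protein, stood at 52.9, 10.4 and 0.522 RPKM. Slc16a9, a monocarboxylate transporter, stood at 9.39, 1.30 and 0.368 RPKM. Ugt2b38, a glucuronosyltransferase, stood at 3.59 RPKM in wild-type and 0.624 in Eed-null villus and was listed at 0 in ISC. Naip5, a sensor of bacterial flagellin, stood at 34.5, 13.3 and 7.76 RPKM.

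Only 34 ISC-lower genes fell past the ISC level, and 30 of them stayed within 1.5-fold of it. Klf15, a Krüppel-like transcription factor, stood at 7.67 RPKM in wild-type villus, 1.60 in Eed-null villus and 1.89 in ISC. Dhrs3, which reduces retinal, stood at 23.1, 7.15 and 13.7 RPKM. Pccb, a subunit of propionyl-CoA carboxylase, stood at 71.2, 24.8 and 35.1 RPKM. In these 3 genes ISC lay between the villus groups, nearer to Eed-null villus on the log2 scale for Klf15 and Pccb. Otc, the urea cycle enzyme that makes citrulline in the intestine, stood at 106, 42.4 and 74.0 RPKM. Isx, an intestinal homeobox factor that represses vitamin A uptake, stood at 62.6, 27.2 and 39.8 RPKM. Ccdc114 was the exception in size, at 3.60, 0.0812 and 1.66 RPKM, with Eed-null villus 20.5-fold below ISC.

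The largest of the 6 classes was that of 246 genes already lower in ISC than in villus that rose still higher in Eed-null villus. Retnlb (chr16:48816968-48819005), a goblet cell resistin-like molecule, stood at 8.90 RPKM in wild-type villus, 179 in Eed-null villus and 2.61 in ISC. Its level was 68.3-fold above ISC. Npl, an enzyme of sialic acid breakdown, stood at 22.0, 189 and 0.203 RPKM. Fn1, which encodes fibronectin, stood at 1.37, 22.1 and 0.0461 RPKM. Fn1 was the single mesenchyme list gene called in Eed-null villus. The 4 joined mesenchyme genes summed to 5.10, 27.5 and 8.95 RPKM in the 3 groups, and Fn1 made up most of the Eed-null sum. The part of mesenchymal cells was not tested. Wnt4, a secreted Wnt ligand, stood at 0.441, 15.9 and 0.0671 RPKM. Slc43a3, a nucleobase transporter, stood at 0.478, 17.9 and 0.0419 RPKM. In these genes Eed-null villus stood above both wild-type populations, with median levels over the class of 7.03, 17.1 and 1.17 RPKM in wild-type villus, Eed-null villus and ISC.

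**Figure D3:**
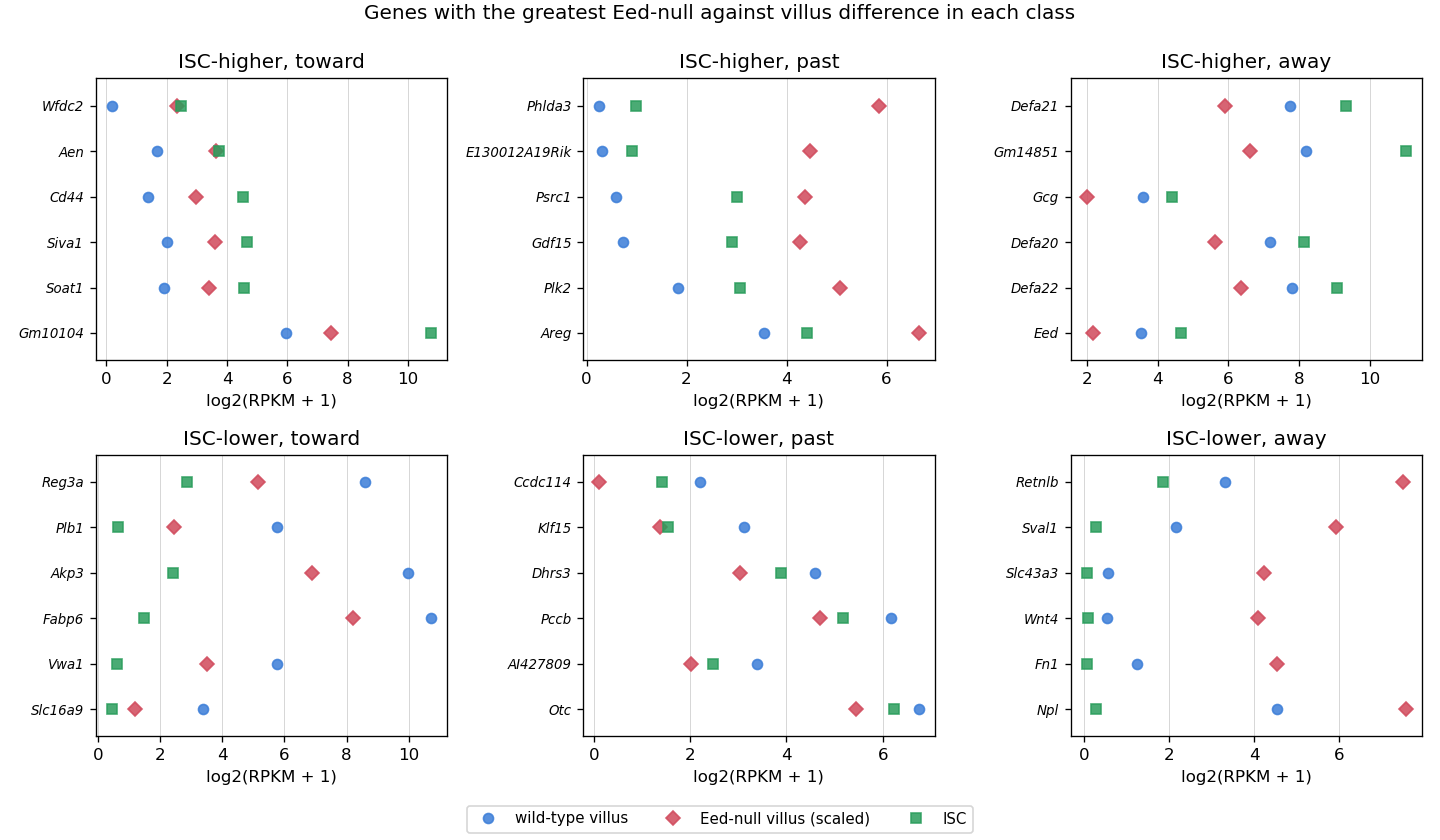
Levels of the 6 genes with the greatest Eed-null against wild-type villus difference in each class, apart from genes that share a locus entry, on the log2(RPKM + 1) scale (horizontal axis); each gene has 1 point per group, blue circle for wild-type villus, red diamond for Eed-null villus and green square for ISC. The red point lies between the others for genes that moved toward ISC (Wfdc2 and Aen almost on the green point), beyond the green point for genes that moved past it (Phlda3) and on the far side of the blue point for genes that moved away (Retnlb).

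Off the axis, where wild-type villus and ISC were not called, 251 genes rose to a median of 4.99 RPKM from 1.94, against 1.93 in ISC. Ephx1, the microsomal epoxide hydrolase, stood at 11.6 RPKM in wild-type villus, 196 in Eed-null villus and 12.2 in ISC. Ccng1, cyclin G1, stood at 21.0, 187 and 23.7 RPKM. Akr1b8, an aldo-keto reductase, stood at 2.29, 74.5 and 2.00 RPKM. Slc25a4, a mitochondrial ADP/ATP carrier, stood at 15.9, 116 and 15.8 RPKM. In all 4 genes the wild-type groups were nearly level and Eed-null villus alone stood high, 37.3-fold above ISC for Akr1b8. Other genes rose from near silence. Igf2bp3, an RNA-binding protein of fetal tissue, stood at 0.277, 8.31 and 0.289 RPKM. Ly6d, a GPI-anchored surface protein, stood at 0.526, 23.4 and 0.0106 RPKM. The 102 genes that fell went from a median of 15.8 to 7.75 RPKM, against 15.7 in ISC. Aqp1, a water channel, stood at 102, 33.6 and 142 RPKM, Nadk2, the mitochondrial NAD kinase, at 20.7, 6.12 and 27.2 RPKM, and the deacetylase gene Hdac11 at 21.0, 6.75 and 23.4 RPKM. Cdx2, a homeobox factor that maintains intestinal identity, stood at 70.9, 36.2 and 65.0 RPKM, while the identity factors Hnf4a at 204, 276 and 187 RPKM and Gata4 at 41.6, 43.6 and 35.8 RPKM were not called in Eed-null villus.

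Gene lists describe which programs followed these paths. The lists were chosen with earlier results of these data known. Their counts are therefore descriptions, and setting them beside the shares of all genes is not a test. Each list is described by its counts and by medians on the log2(RPKM + 1) scale, beside medians over all joined genes of -0.07 for Eed-null minus wild-type villus, -0.03 for ISC minus wild-type villus and -0.003 for Eed-null minus ISC. Over all joined genes, 6.23% rose and 3.57% fell in Eed-null villus, and the counts of each list stand beside these shares.

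Stem cell genes stood below ISC in both villus groups. Of 24 stem cell genes joined of 28 listed, 2 rose (Cd44 and Sox9) and 1 fell (Olfm4) in Eed-null villus, close to the 6.23% and 3.57% of all genes, so the calls do not set the list apart. Lgr5, the R-spondin receptor, stood at 0.607 RPKM in wild-type villus, 0.688 in Eed-null villus and 18.3 in ISC. Ascl2, a transcription factor of ISC fate, stood at 0.969, 0.46 and 27.4 RPKM, and Smoc2, a matrix protein enriched in ISC, at 6.78, 7.44 and 100.3 RPKM. None of these 3 was called between Eed-null and wild-type villus. Sox9, a crypt transcription factor, stood at 2.32, 4.76 and 19.2 RPKM. The list's median was 0.09 above wild-type villus and 2.94 below ISC, and 22 of 24 genes stood more than 2-fold below ISC. The summed level was 369 RPKM in wild-type villus, 278 in Eed-null villus and 4578 in ISC.

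Proliferation and ribosome genes likewise stayed far below ISC. All 43 cell cycle and DNA replication genes were higher in ISC than in wild-type villus and more than 2-fold lower in Eed-null villus than in ISC. Mki67, the proliferation antigen, was the only one called in Eed-null villus, at 7.18 RPKM in wild-type villus, 4.47 in Eed-null villus and 53.2 in ISC. In 41 of the 43 the Eed-null value was below the wild-type value, as it was in 59.7% of all joined genes, and the list's median was -0.35 against wild-type villus and -2.49 against ISC. Of 77 ribosomal protein genes joined, 70 were higher in ISC and 75 stood more than 2-fold lower in Eed-null villus than in ISC. The pair that rose in Eed-null villus was Rps19, at 212, 349 and 1466 RPKM, and Rps27l, at 351, 632 and 298 RPKM, a ribosomal protein paralog induced by p53. None of 24 translation factor and nucleolar genes was called in Eed-null villus, whereas 21 were higher in ISC.

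Absorptive genes kept most of their distance from ISC. Among 29 brush border and digestion genes, 6 fell and 2 rose in Eed-null villus, and all 29 remained more than 2-fold above ISC. Lct, the lactase of the brush border, stood at 381 RPKM in wild-type villus, 195 in Eed-null villus and 5.10 in ISC. Treh, trehalase, stood at 345, 157 and 3.90 RPKM, and Ace, a peptidase, at 639, 294 and 8.87 RPKM. All 3 fell by about as much as each other and remained far above ISC. Sis, sucrase-isomaltase, at 1309.9, 851 and 15.9 RPKM, and Alpi, alkaline phosphatase, at 1146, 735 and 15.8 RPKM, were not called in Eed-null villus. Rising instead were Ada, adenosine deaminase, at 826, 1796 and 6.40 RPKM, and Gda, guanine deaminase, at 304, 556 and 3.07 RPKM. The median was -0.25 against wild-type villus, where ISC stood at -5.43.

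Nutrient transporters divided in a similar way, with 5 falling and 3 rising of 28. Trpv6, the apical calcium channel, stood at 6.87 RPKM in wild-type villus, 1.41 in Eed-null villus and 0.0355 in ISC. Slc10a2, the bile acid transporter, stood at 27.8, 10.1 and 0.13 RPKM, and Slc51a, which exports bile acids at the basal side, at 227, 109 and 6.81 RPKM. These 3 genes fell, while the bile acid exporter partner Slc51b at 343, 288 and 3.31 RPKM and the calcium-binding gene S100g at 2169.9, 3167 and 13.7 RPKM were not called in Eed-null villus. Slc51b and S100g each overlap another gene in a shared locus entry and were named after their values were seen. The 3 that rose were the iron genes Cybrd1 at 7.71, 19.5 and 1.08 RPKM and Slc11a2 at 31.5, 55.6 and 9.67 RPKM and the nucleoside transporter Slc28a2 at 61.8, 113 and 1.02 RPKM. Of 25 lipid absorption genes, 3 fell and 2 rose. Apoc3, an apolipoprotein, stood at 2606, 952 and 17.2 RPKM. Scarb1, the HDL receptor, stood at 22.9, 74.5 and 3.96 RPKM and rose away from ISC, while the pancreatic lipase-related gene Pnliprp2 stood at 65.3, 148 and 159 RPKM and rose toward ISC.

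Of 39 xenobiotic metabolism genes, 10 fell in Eed-null villus, whereas 4 rose. In ISC 37 of the 39 were lower and none higher, so a fall among those 37 could only be toward or past ISC. All 10 falls were toward it. Aldh1a1, a retinal dehydrogenase, stood at 370.4 RPKM in wild-type villus, 109 in Eed-null villus and 12.0 in ISC. Ugt2a3, a glucuronosyltransferase, stood at 103, 22.8 and 8.05 RPKM. The cytochrome P450 genes Cyp3a25 at 248, 101 and 4.38 RPKM, Cyp2b10 at 238, 97.1 and 3.82 RPKM and Cyp1a1 at 11.6, 5.10 and 0.0899 RPKM fell, and Cyp2c55 at 60.5, 119 and 1.34 RPKM rose. Most of the list stayed nearer to villus than to ISC, with a median of -0.24 against wild-type villus and 3.49 against ISC. Genes of this family resemble each other, so their counts are less certain. Ppara, the nuclear receptor of fatty acid oxidation, was the only one of 22 genes of its pathway to change, at 19.8, 9.72 and 5.81 RPKM. Of 80 oxidative phosphorylation genes, 58 were lower in ISC and 1, Ndufa4, fell in Eed-null villus, at 605, 386 and 516 RPKM.

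Of the 25 p53 target genes, 20 rose and 1 fell in Eed-null villus, beside 6.23% and 3.57% of all genes. These 21 took every path: 4 moved toward ISC, 6 past it, 4 away and 7 off axis. Between wild-type villus and ISC, 10 of the 25 were higher and 8 lower in ISC. Cdkn1a, the CDK inhibitor p21, stood at 159.7 RPKM in wild-type villus, 633 in Eed-null villus and 17.7 in ISC, 35.8-fold above ISC after rising 3.97-fold. Mdm2, the ubiquitin ligase that degrades p53, stood at 25.2, 59.4 and 11.0 RPKM. Bax, a pore-forming death effector, stood at 33.3, 113 and 33.7 RPKM. Of these 3, Bax was not called between wild-type villus and ISC, and Cdkn1a and Mdm2 were lower in ISC. Trp53inp1, a stress-induced nuclear protein, stood at 4.11, 24.1 and 8.42 RPKM, and the death receptor gene Eda2r at 0.0534, 5.71 and 0.822 RPKM. Sesn1, a sestrin that restrains mTORC1, was the one that fell, from 60.5 to 36.8 RPKM, 2.83-fold above ISC. The list's median was 1.20 above wild-type villus and 1.43 above ISC, where ISC was 0.16 above wild-type villus. Trp53 itself stood at 12.1, 11.7 and 61.8 RPKM and was not called in Eed-null villus. The list was drawn up with its rise in Eed-null villus already known, so its count is a description.

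Promoter sequences are shown for 2 p53 targets, picked among the genes that rose because they hold a p53 half-site near a start site. The half-site is the 10-base unit of the p53 response element. Others of the list, such as Phlda3, Gdf15 and Plk2, rose more than these 2. RefSeq promoters (GRCm38.p6; 250 bases before to 50 after the first start listed) were found for 19 of the 25 genes. A half-site lay in 8 of the 19, and in 7 of the 16 that rose, against 8.37% of all 27025 promoters. The half-site pattern reads alike on both strands, and matches may overlap. A match is a description of the letters and not evidence of binding. The 250 bases before the start follow, 5′ to 3′ on the gene's strand, with half-sites in capitals, for Ccng1 (chr11:40755287-40755536, minus strand) and Cdkn1a (chr17:29090729-29090978, plus strand).
Ccng1: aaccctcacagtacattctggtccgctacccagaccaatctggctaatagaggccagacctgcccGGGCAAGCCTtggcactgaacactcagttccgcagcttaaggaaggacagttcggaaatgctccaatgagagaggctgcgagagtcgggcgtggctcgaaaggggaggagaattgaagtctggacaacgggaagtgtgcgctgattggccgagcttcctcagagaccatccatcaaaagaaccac
Cdkn1a: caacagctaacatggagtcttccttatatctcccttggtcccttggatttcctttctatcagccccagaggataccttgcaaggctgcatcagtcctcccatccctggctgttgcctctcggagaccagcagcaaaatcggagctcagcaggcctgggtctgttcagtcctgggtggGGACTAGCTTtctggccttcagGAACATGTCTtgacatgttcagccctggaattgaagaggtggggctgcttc

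Of 28 interferon response genes, 12 rose in Eed-null villus and none fell, beside 6.23% and 3.57% of all genes. All 28 were lower in ISC than in wild-type villus, so any rise among them counts as away from ISC. Isg15, a ubiquitin-like antiviral protein, stood at 134 RPKM in wild-type villus, 255 in Eed-null villus and 1.96 in ISC. Ifit1, which binds viral RNA, stood at 54.6, 126 and 0.213 RPKM, 590.0-fold above ISC. Ifit2 stood at 1.85, 9.96 and 0.597 RPKM and Usp18, which removes Isg15 from proteins, at 30.4, 75.5 and 0.684 RPKM. The list's median was 0.60 above wild-type villus and 2.99 above ISC. Of 21 leukocyte genes joined of 32, none was called higher and 1, Gzmb, fell. These calls are close to the 6.23% and 3.57% of all genes and do not set the list apart. In 17 of the 21 leukocyte genes, however, the Eed-null value was below the wild-type value, as in 59.7% of all joined genes. The median of Eed-null minus wild-type villus was -0.34 for the leukocyte list and -0.07 over all joined genes. The summed level of the leukocyte genes was 208, 150 and 46.7 RPKM in wild-type villus, Eed-null villus and ISC. The part of leukocytes in the interferon gene levels was not tested. Acute-phase Saa1 stood at 5.41, 37.7 and 0.0302 RPKM and Saa3 at 1.46, 10.9 and 0.358 RPKM, whereas antimicrobial Reg1 fell, at 1969, 478 and 40.0 RPKM.

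The core of the interferon-stimulated response element (GAAANNGAAA, or TTTCNNTTTC on the other strand) lay in the promoters of 12 of the 18 interferon list genes with a RefSeq promoter, and in 6 of the 9 that rose, against 3.49% of all 27025. Shown in the same way, with the matches in capitals, are the 250 bases before the start of Isg15 (chr4:156200819-156201068, minus strand), which holds 3 overlapping matches, and Ifit1 (chr19:34640639-34640888, plus strand), which holds 2. For the sterol synthesis genes described next, the sterol regulatory element (TCACNCCAC, or GTGGNGTGA) was in 0 of 14 promoters, against 1.22% of all, which says only that these letters are not in these windows.
Isg15: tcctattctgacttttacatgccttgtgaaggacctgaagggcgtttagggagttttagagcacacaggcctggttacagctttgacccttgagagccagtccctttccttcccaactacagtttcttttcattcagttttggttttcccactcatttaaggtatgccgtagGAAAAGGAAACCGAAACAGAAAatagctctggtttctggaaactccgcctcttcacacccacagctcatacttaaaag
Ifit1: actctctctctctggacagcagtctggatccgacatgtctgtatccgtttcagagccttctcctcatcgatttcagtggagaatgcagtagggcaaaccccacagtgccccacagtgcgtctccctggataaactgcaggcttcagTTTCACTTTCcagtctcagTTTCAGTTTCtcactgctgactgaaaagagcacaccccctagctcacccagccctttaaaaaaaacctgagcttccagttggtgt

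Of 22 sterol synthesis genes, 10 rose in Eed-null villus and none fell, beside 6.23% and 3.57% of all genes. Pmvk, phosphomevalonate kinase, stood at 15.9 RPKM in wild-type villus, 36.9 in Eed-null villus and 15.4 in ISC. Sqle, squalene epoxidase, stood at 24.7, 51.7 and 17.9 RPKM, Fdps, farnesyl diphosphate synthase, at 65.9, 133 and 53.9 RPKM, and Cyp51, lanosterol demethylase, at 19.6, 40.0 and 12.2 RPKM. Of the 10, 4 moved away from ISC and 6 were off axis. Only 1 of the 22 was called higher in ISC, so a rise could count as toward or past ISC at that gene alone. Their list lay 0.64 above wild-type villus and 1.13 above ISC at the median, with 12 of 22 genes more than 2-fold above ISC, where 5 had been in wild-type villus.

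**Figure D4:**
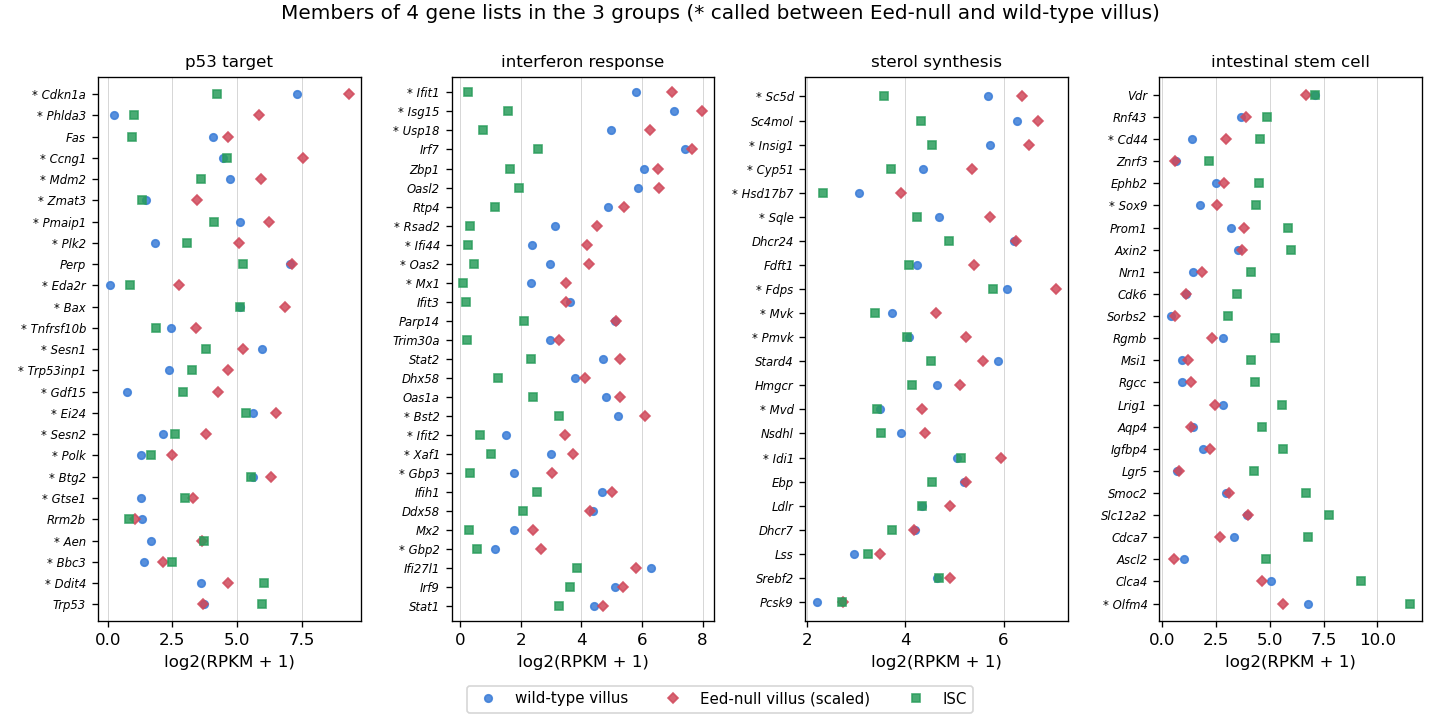
Levels on the log2(RPKM + 1) scale (horizontal axis) of every joined member of 4 lists, ordered by Eed-null minus ISC; blue circles are wild-type villus, red diamonds Eed-null villus and green squares ISC, and an asterisk marks a call between Eed-null and wild-type villus. Red points lie to the right of the blue in 20 called p53 targets, 12 called interferon genes and 10 called sterol genes, and close to the blue and left of the green in most stem cell genes (22 of 24 more than 2-fold below ISC).

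Secretory lineage genes took mixed paths. Of 18 goblet cell genes, 8 rose and none fell, beside 6.23% and 3.57% of all genes. Spdef, the transcription factor of goblet maturation, stood at 10.5 RPKM in wild-type villus, 17.6 in Eed-null villus and 17.8 in ISC and so reached the ISC level. Spink4, a secreted protease inhibitor, stood at 1399, 3767 and 3089 RPKM, Muc2, the gel-forming mucin, at 87.5, 147 and 106 RPKM, and Ang4, an antimicrobial ribonuclease that is also on the Paneth list, at 1049.7, 2152 and 1982 RPKM. In Spink4, Muc2 and Ang4 the Eed-null level exceeded that of both wild-type populations. Atoh1, the switch of secretory fate, stood at 9.06, 15.8 and 7.40 RPKM, off axis. Of 18 Paneth cell genes, 16 were higher in ISC, 4 defensin genes fell and Ang4 and Mptx1 rose, the latter a pentraxin at 139, 798 and 44.8 RPKM. Of 26 enteroendocrine genes, 6 rose and 1, Gcg, fell. The hormone genes Gip at 219, 446 and 63.5 RPKM and Sst at 44.9, 95.5 and 17.7 RPKM rose away from ISC, and Tac1 at 3.80, 9.20 and 20.9 RPKM rose toward it. Hpgds, prostaglandin D synthase, was the single tuft cell gene of 17 called, at 1.10, 10.2 and 0.436 RPKM.

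Signals and pathways that act on the crypt showed rises on both sides of the ISC level. Of 13 Wnt pathway genes joined, 4 rose and none fell, beside 6.23% and 3.57% of all genes. Fzd7, a Wnt receptor, stood at 2.41, 5.43 and 7.58 RPKM and Tcf7, a nuclear effector, at 0.725, 1.68 and 6.25 RPKM, both toward ISC. Apcdd1, a Wnt antagonist, stood at 0.364, 5.66 and 0.837 RPKM, past ISC. Only part of the pathway moved. Axin2, a feedback target of Wnt signalling, stood at 10.6, 11.8 and 61.7 RPKM and was not called in Eed-null villus. Of 15 Notch pathway genes, 4 rose and none fell, beside the same shares. The receptor Notch1 stood at 0.918, 1.90 and 15.3 RPKM. The ligand Jag1 stood at 1.40, 3.50 and 2.63 RPKM and the ligand Jag2 at 0.461, 1.53 and 0.778 RPKM. Atoh1, given above, was the last of the 4. Hes1, a Notch target, was not called in Eed-null villus. Among secreted signals, the EGF family ligand Ereg stood at 2.21, 8.09 and 0.183 RPKM and moved away from ISC, where Areg had moved past it.

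Polycomb genes were mostly not called in Eed-null villus. Most developmental genes were outside the join, which does not mean that they were unchanged. Of 10 PRC2 genes, 6 were higher in ISC and Eed alone was called in Eed-null villus. Of 20 PRC1 genes, 3 rose. Bmi1, a PRC1 subunit, stood at 3.78 RPKM in wild-type villus, 13.9 in Eed-null villus and 8.07 in ISC, past the ISC level. Rnf2, the PRC1 ubiquitin ligase, stood at 4.99, 9.06 and 9.22 RPKM, and which side of the ISC level it fell on depended on the scale: centred on all genes, it lay past ISC. Scmh1, another PRC1 component, stood at 1.38, 3.63 and 6.19 RPKM. Of 39 Hox genes, 2 were joined and 1 was called, Hoxb7 at 0.132, 1.54 and 0.397 RPKM. Outside the join, Hoxa9, Hoxa10, Hoxa13, Hoxb6, Hoxb9 and Hoxb13 were called higher in Eed-null villus, while others such as Hoxc6 and Hoxd9 were not called. Of 166 developmental transcription factors, 24 were joined, and 5 of these rose and 3 fell. Among factors outside the join, Pax3, Foxd3, Gata3 and Nkx6-1 were called higher, while others such as Msx2 and Onecut2 were not called. Meis2, a homeobox cofactor, stood at 1.17, 7.55 and 0.362 RPKM, and Foxq1, a forkhead factor, at 18.1, 35.0 and 4.03 RPKM. Both rose away from ISC. Pax8 fell toward ISC, at 6.59, 2.26 and 0.257 RPKM. The fetal intestine list had 17 of 27 genes joined, of which 10 rose and none fell, again beside 6.23% and 3.57%. Cd55, a complement regulator, stood at 60.8, 167 and 3.55 RPKM and Anxa3, an annexin, at 3.18, 13.1 and 0.739 RPKM, both away from ISC, while Krt7, a keratin, at 35.8, 87.9 and 67.9 RPKM moved past it. The fetal list stood a median of 0.77 above wild-type villus and 2.48 above ISC.

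Immediate early genes are known to respond quickly to handling and enzymatic digestion of tissue. Of 33 joined, 20 were higher in ISC, beside 30.3% of all genes, and 9 rose and none fell in Eed-null villus, beside 6.23% and 3.57%. The part of handling in these values was not tested. Egr1 stood at 1.93 RPKM in wild-type villus, 3.90 in Eed-null villus and 163 in ISC, and Nr4a1 at 0.21, 0.855 and 56.2 RPKM. Both rose toward ISC while remaining 41.9-fold and 65.8-fold below it. Of the 9 genes that rose, 5 moved toward ISC, 2 moved away and 2 were off axis. Socs3, at 23.7, 55.8 and 8.32 RPKM, was among those that moved away. Without immediate early and sex-linked genes, 152 in place of 157 ISC-higher genes moved toward ISC. Pancreatic colipase, Clps, also rose toward ISC, at 116, 199 and 476 RPKM. Of 21 pancreas acinar genes 7 were joined, and the 6 besides Clps were not called in Eed-null villus. The 7 summed to 136, 221 and 580 RPKM in wild-type villus, Eed-null villus and ISC. Most of each sum was Clps itself, and the part of pancreatic RNA was not tested.

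**Figure D5:**
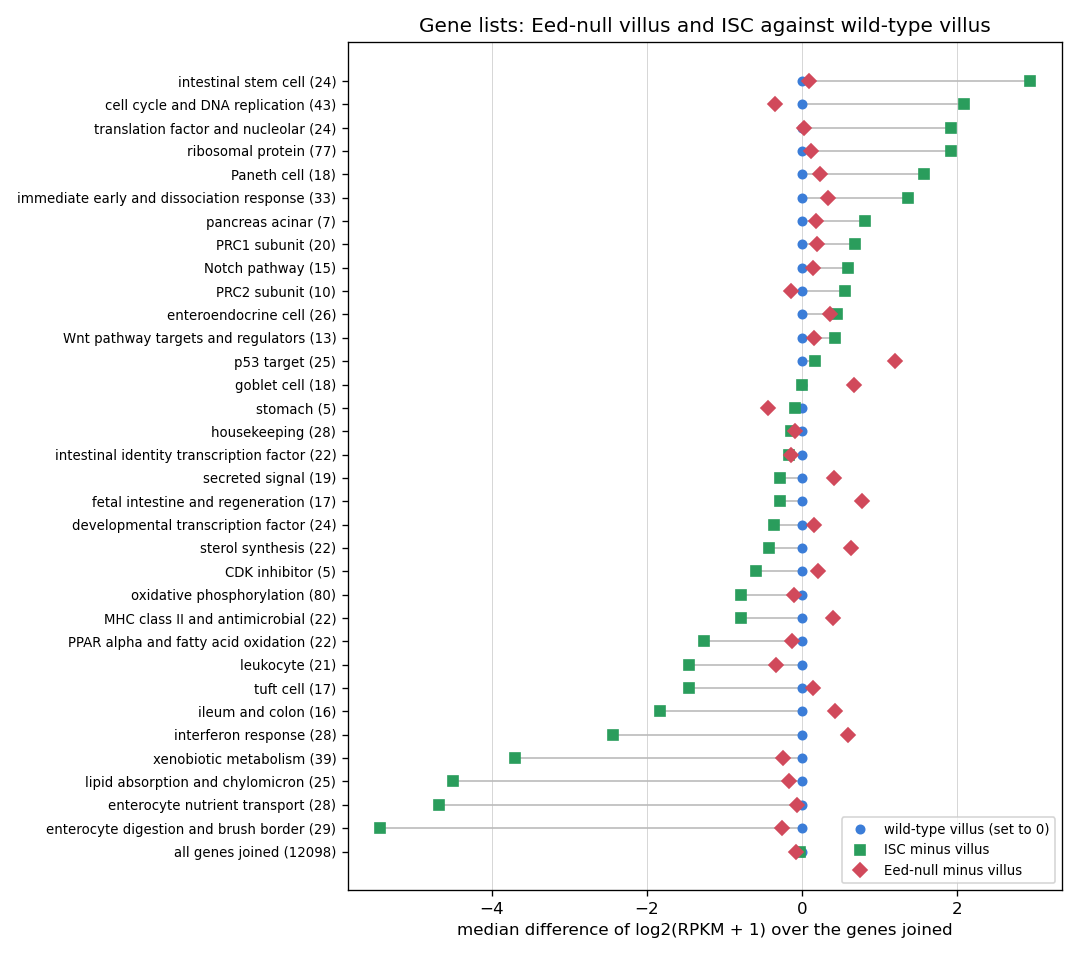
Median difference from wild-type villus on the log2(RPKM + 1) scale (horizontal axis) for each list with at least 5 genes joined (number in brackets), ordered by the ISC value; the blue point at 0 is wild-type villus, the green square ISC and the red diamond Eed-null villus. For stem cell (0.09 against 2.94) and brush border genes (-0.25 against -5.43) the red point stays near 0, and for p53 target (1.20 against 0.16), sterol (0.64 against -0.42) and interferon genes (0.60 against -2.44) it lies off the line to ISC.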

How the data were processed

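RNA was measured in 3 groups of 3 libraries (TruSeq V2, not strand-specific, 75 bp single-end reads, per the labels' protocols), and 14 chromatin immunoprecipitation and input libraries were not analysed here. Build mm9, TopHat2 2.0.6, Bowtie, Cuffdiff and Cufflinks 2.0.1 were used per the submitters' processing notes, which state no roles; what annotation was used is not given here. The deposited values of the ISC table are RPKM per the file headers. The Eed-null table names no unit, and RPKM was inferred from its constant ratio to the other. Each p-value and q-value was computed by the authors. The tables hold 1 value per group, so no model was fitted and depth is unknown. Genes were joined by symbol, and 1 entry naming no gene was left out. Differences are of log2(RPKM + 1), with a pseudocount of 1 RPKM that understates changes of low genes. Folds are ratios without it. Because genes had to be tested in both tables, every joined gene reached at least 0.408 RPKM in some group, and genes silent in villus and ISC are missing. Of the joined genes, 2076 (17.2%) share a locus entry with another gene. A listed 0 can be a failed estimate; 109 joined genes are listed at 0 in ISC, 40 in Eed-null and 12 in wild-type villus. The largest q called and the smallest not called were 0.04998 and 0.05000 for ISC and 0.0498 and 0.0501 for Eed-null villus in the authors' deposited tables.

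Named genes were, apart from those sharing a locus entry, the 6 with the greatest Eed-null difference in each class and off-axis direction, the 6 closest to ISC among those 4-fold apart between villus and ISC, up to 4 called members of each of 38 lists, and Eed, Lgr5, Olfm4, Ascl2, Mki67, Alpi, Sis, Lyz1 and Cdkn2a; others were named after their values were seen. The members and lists were chosen with earlier results of these data known. The classification was tested on simulated data. Alternatives changed the q threshold, pseudocount, filter, scale and genes counted. Python 3.11.15, pandas 2.3.3, numpy 2.4.6 and matplotlib 3.10.9 were used. Coordinates of genes are those of the files (mm9), whose start convention is not stated.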

Additional observations from a re-analysis of the deposited data

How the results depend on the processing

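No paired analysis was possible because the tables give 1 value per group, and for the same reason no replicate could be left out. With q at or below 0.01, ISC-higher genes numbered 100 toward, 63 past and 36 away, and ISC-lower genes 136 toward, 18 past and 161 away. These smaller counts follow from the stricter threshold. The other alternatives left all 6 classes within 1.5-fold of their counts: a pseudocount of 0.1 RPKM, at least 1 RPKM in the highest group, genes sharing a locus entry or listed at 0 left out, and 2 other scales. Centring Eed-null villus on ISC over all genes raised it by 0.06 (log2) and gave 149 toward and 108 past among ISC-higher genes. Of 124 named genes, 21 changed class at the stricter q, 1 (Rnf2) with the all-gene scale and 0 with the other pseudocount or the housekeeping scale. The share above ISC among genes more than 2-fold apart was 51.3%, and 50.9% (genes listed at 0 left out) to 53.7% (all-gene scale) under the alternatives. An alternative added after seeing the data left out sex-linked and immediate early genes and changed each count by less than 1.5-fold. The check of promoter CpG content was void, since 79.1% of joined genes had a promoter in the table and 80% was needed, and it was not run. Depth per library is unknown, so what depth limits cannot be given.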

Other observations

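Genes that left the common scale because ISC were not tested hold some of the greatest rises in Eed-null villus. Of 1422 genes called between Eed-null and wild-type villus, 1186 were joined and 236 were not, of which 235 rose. All 235 were below 1 RPKM in ISC, and 36 were listed at 0 there. Among genes with the status of not tested, the highest ISC level was 0.241 RPKM. Genes that low in both wild-type populations could hardly be called other than by rising. Their direction and their low ISC level thus follow from the filter and are not results. The median over the 236 was 0.0812 RPKM in wild-type villus, 0.964 in Eed-null villus and 0.0438 in ISC, and 15 of them reached 5 RPKM or more in Eed-null villus. Cdkn2a, a classical Polycomb target whose products restrain the cell cycle and stabilise p53, stood at 0.406 RPKM in wild-type villus, 166 in Eed-null villus and 0.043 in ISC. Hoxb13, a homeobox gene of the posterior body, stood at 0.115 RPKM in wild-type and 95.6 in Eed-null villus and was listed at 0 in ISC. Hoxa10 stood at 0.049, 5.90 and 0.158 RPKM in the order wild-type villus, Eed-null villus and ISC, Barx1, a homeobox gene of the stomach, at 0.0108, 5.56 and 0.0239 RPKM, and Gkn1, a gastric mucosal protein, at 0.265, 9.32 and 0.00858 RPKM. These 5 genes were below 1 RPKM in both wild-type populations, which likewise goes with their status of not tested. Genes at 5 RPKM or more were picked by their values.

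Lyz1, the Paneth cell lysozyme, stood at 1021 RPKM in wild-type and 813 in Eed-null villus and was listed at 0 in ISC with a status that marks too much data for an estimate. The same status covers Eef1a1, at 1520.3 and 1529 RPKM in villus and listed at 0 in ISC, and no difference from ISC is read from either.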
